A study of Mus musculus with 2 samples.

Results

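The TRIM family was described gene by gene in 1 wild-type and 1 H19 knockout library of mouse ovary. Members were all rows of the count table whose symbol is Trim followed by a number, with or without trailing letters. There were 66 such rows among 24421 in the table, and all 66 matched a gene of the GENCODE M21 annotation. The family was picked after the counts of Trim12a and Trim30d had been seen in these same libraries, so the values below describe the libraries and test nothing.

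TRIM proteins carry a RING finger, B-boxes and a coiled coil, in that order, usually followed by a further domain that binds partners. Most act as ubiquitin ligases, and different members serve in antiviral defence, gene silencing, muscle upkeep and the nervous system. The locus that holds TRIM5 in primates is expanded in the mouse into several Trim12, Trim30 and Trim34 copies beside Trim5 and Trim6. Many members of that locus are switched on by interferon in immune cells.

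Ovaries were taken from C57BL/6J mice aged 8 weeks that had received no special treatment. One was labelled wild type (WT) and the other H19KO, with the allele given as H19(Δ3). The labels do not say how many animals gave each library. With 1 library per genotype there is no replicate check and no p-value, and differences between animals or preparations cannot be told apart from the genotype.

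The wild-type library held 23335131 counts and the H19KO library 23041225. H19, the targeted long noncoding RNA, had 672 counts in WT and 0 in H19KO. Ovarian markers were present in both: the granulosa gene Inha had 27765 and 19585 counts, the steroidogenic gene Cyp11a1 97106 and 95277, and the oocyte gene Zp2 1714 and 1325. Cyp17a1, of androgen synthesis in theca cells, had 11243 and 2834 counts (log2 ratio -1.98), Cyp19a1, the granulosa aromatase, 1052 and 345 (-1.60), the luteinizing hormone receptor gene Lhcgr 15503 and 10830 (-0.51) and Star 42202 and 45413 (0.11). All 5 granulosa markers and all 4 oocyte markers had intervals below 0 in the knockout library, and 5 of 6 macrophage markers had intervals above 0. Of the 4 theca and luteal markers, 3 had intervals below 0 and 1 above it. Among all measured genes, as defined below, 24.0% had an interval below 0 and 22.2% above it. The oviduct marker Ovgp1 had 33 and 134 counts (log2 ratio 2.01, 1.47 to 2.63) and Foxj1, of ciliated cells, 11 and 3. The part of these shifts in the TRIM values was not tested. In whole ovary RNA, fewer cells of a type and less RNA per cell cannot be told apart.

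Log2 ratios are knockout over wild type, from counts scaled by TMM with 0.5 added. Each is followed in brackets by its 95% exact binomial interval, which covers counting error only. A gene was called measured at a mean of at least 1 CPM (counts scaled to a common library size). Genes whose whole interval lay beyond 2-fold are given as higher or lower.

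Of the 66 TRIM rows, 43 were measured. Just 2 of these, Trim12a and Trim30d, lay beyond 2-fold, both lower in the knockout library, and none lay beyond 2-fold higher. Among all 13928 measured genes 0.998% lay beyond 2-fold, 0.388% lower and 0.610% higher. Because the pair led to the choice of the family, nothing is read from that count. The median log2 ratio of the 43 members was -0.02, beside -0.01 for all measured genes. Of the 43, 9 had an interval wholly above 0 and 14 wholly below it, where 22.2% and 24.0% of all measured genes did (46.2% for both together).

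**Figure D1:**
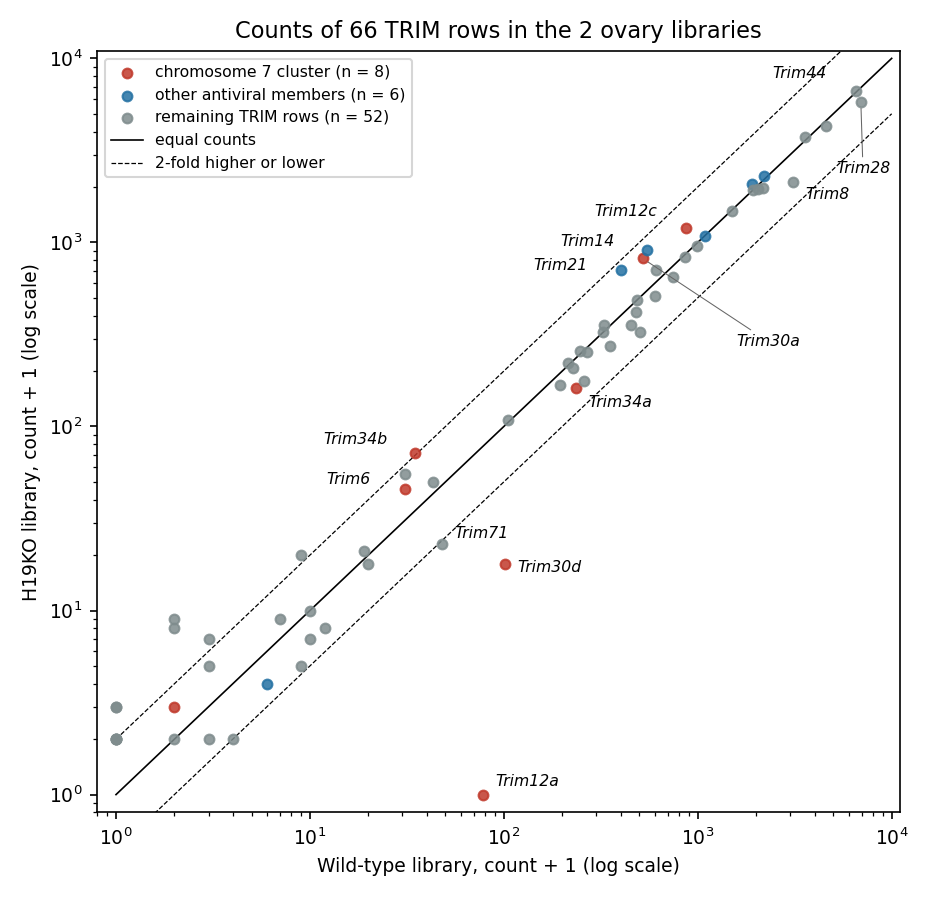
Counts plus 1 of the 66 TRIM rows in the wild-type library (x axis, log scale) and the H19KO library (y axis, log scale), 1 point per row, with lines for equal counts and 2-fold. Most rows lie along the line of equal counts, whereas Trim12a (77 and 0 counts) and Trim30d (100 and 17) lie far below it.

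The widest spread was in the cluster on chromosome 7. Trim12a and Trim30d were lowest there, and because they led to the choice of the family, nothing is read from that spread. The 8 cluster rows were Trim6, Trim34a, Trim12a, Trim34b, Trim12c, Trim30b, Trim30a and Trim30d, in that order along chr7:104218793-104507849 (mm10, a span of 289 kb). Trim5 and Trim30c, which the annotation also places there, had no row in the count table and so no counts. Trim5 enters below by sequence only. The 7 measured members had a median log2 ratio of 0.46, with 3 intervals above 0, 3 below and 1 spanning it. The 36 measured members outside the cluster had a median of -0.03, with 6 intervals above 0, 11 below and 19 spanning it.

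Trim12a, on the minus strand at chr7:104299894-104315466, had 77 counts in WT and 0 in H19KO. Since a count of 0 is compatible with up to 3 counts, Trim12a was lower in H19KO by a bound of at least 25.5-fold, the WT count being taken as measured. Its 95% interval, which also covers counting error in WT, ended at a log2 ratio of -4.34. Trim12c, a related copy at chr7:104338754-104353362 on the same strand, lies beyond Trim34b and went the other way. Trim12c had 873 and 1191 counts (log2 ratio 0.46, 0.33 to 0.58). Trim12a therefore made up 8.11% of the counts of the pair in the wild type (6.45 to 10.03%, exact binomial) and 0 of 1191 in the knockout, which allows a share of up to 0.252% by the limit of 3 counts and 0.309% by the exact binomial interval. Summed, the pair had 950 and 1191 counts (log2 ratio 0.33, 0.21 to 0.46).

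The Trim30 copies divided in the same manner. Trim30a, known as a brake on Toll-like receptor signalling that acts on TAB2 and TAB3, had 519 counts in WT and 817 in H19KO (log2 ratio 0.66, 0.50 to 0.82). Trim30d, next to it at chr7:104470014-104507849, had 100 and 17 counts (log2 ratio -2.51, -3.38 to -1.80). Trim30d was thus 16.1% of all Trim30 counts in the wild type (13.3 to 19.3%) and 2.03% in the knockout (1.19 to 3.24%). Trim30b was near absent, with 1 and 2 counts. The Trim30 rows together had 620 and 836 counts (log2 ratio 0.44, 0.29 to 0.59), so the sum was higher in the knockout library although Trim30d was lower.

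Among the Trim34 copies the more abundant one was the lower in H19KO. Trim34a had 234 and 161 counts (log2 ratio -0.53, -0.83 to -0.24). Trim34b had 34 and 71 (log2 ratio 1.06, 0.46 to 1.705), so its point value but not its whole interval lay above 2-fold. Together they had 268 and 232 counts, and the interval of the sum spanned 0 (-0.46 to 0.06). Trim6, which promotes interferon signalling through free ubiquitin chains, had 30 and 45 counts with an interval that also spanned 0 (-0.11 to 1.31). All cluster rows summed to 1868 and 2304 counts (log2 ratio 0.31, 0.22 to 0.40).

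**Figure D2:**
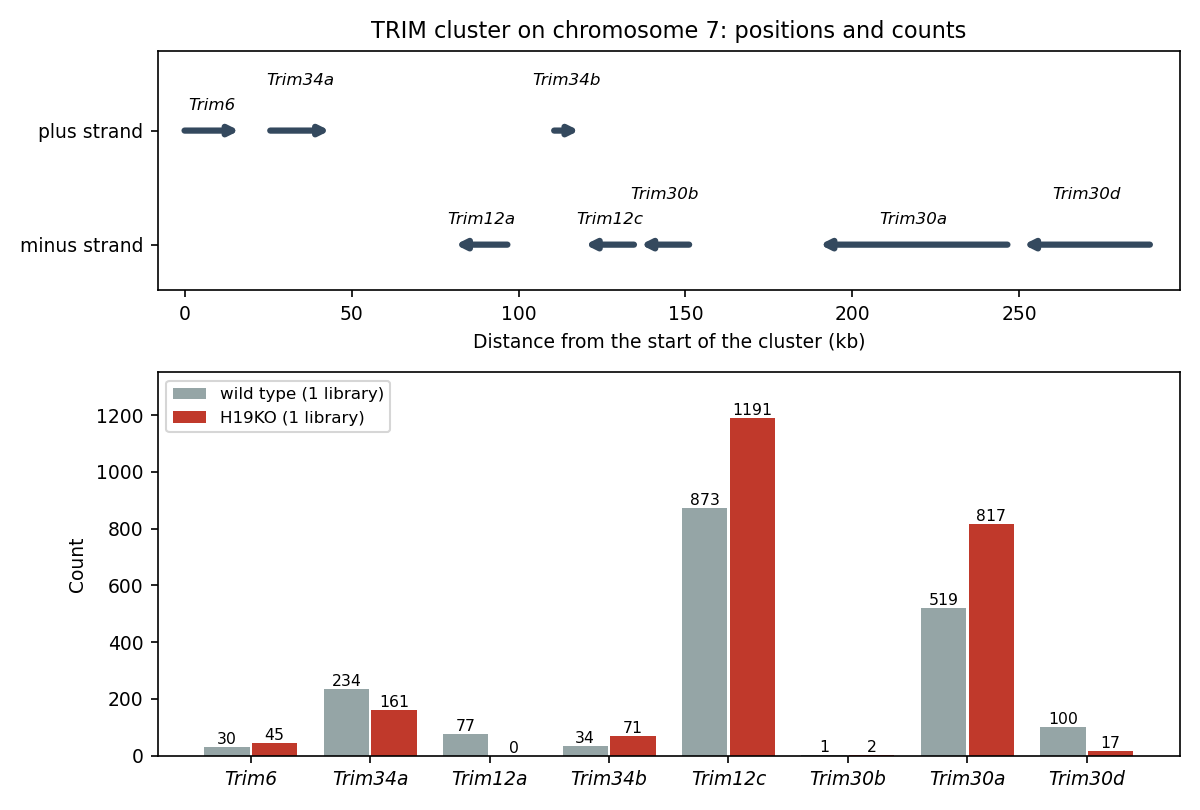
Top, gene bodies of the 8 cluster rows by distance from the start of the cluster in kb and by strand, with arrows in the direction of transcription; bottom, their counts in the wild-type and H19KO libraries, 1 bar per library, in the same order. Trim12a stands at 77 and 0 and Trim30d at 100 and 17, while the related copies Trim12c and Trim30a stand higher in the H19KO library.

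Copies in the cluster resemble each other, which bears on how reads are shared among rows. Of the distinct 76-base windows of Trim12a transcripts, 76 bases being the read length, 5.46% also occurred in a transcript of another gene, including 1.56% in Trim12c and 2.93% in Trim5. For Trim30d the share was 5.35%, nearly all of it with Trim30a. The Trim34 copies were far closer, with 42.0% of Trim34b windows present in Trim34a. The division of counts between Trim34a and Trim34b is therefore uncertain. By exact matches only, 94.5% of Trim12a windows and 94.6% of Trim30d windows were found in no other gene. Trim12c shared 16.8% of its windows, 12.5% with Trim5. How far shared reads enter the counts of any cluster row was not tested. These windows come from the C57BL/6J reference, and reads from a gene copy with other bases were not analysed here. On the opposite strand Trim12a overlaps Gm15133, which had 1 and 0 counts, and the strand setting of the counting is not given in the sources used here.

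The Trim12 and Trim30 pairs, whose copies went opposite ways, are nearly the same in the promoter stretch around an interferon motif. Each stretch below is 110 bases from RefSeq (GRCm38.p6), 5′ to 3′ on the gene's own strand, shown because its members differ in count but hardly in sequence. Capitals mark a match to GAAA, any 2 bases and again GAAA, the core of the element bound by interferon-activated factors. Here the match lies on the opposite strand, so it reads TTTC, 2 bases and TTTC. The positions on the minus strand are chr7:104315466-104315575 for Trim12a, chr7:104353359-104353468 for Trim12c, chr7:104465210-104465319 for Trim30a and chr7:104507871-104507980 for Trim30d.
Trim12a: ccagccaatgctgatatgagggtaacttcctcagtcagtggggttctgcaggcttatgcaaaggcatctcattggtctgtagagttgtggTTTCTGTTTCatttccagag
Trim12c: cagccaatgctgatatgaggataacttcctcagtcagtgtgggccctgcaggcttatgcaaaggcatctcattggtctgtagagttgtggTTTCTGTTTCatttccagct
Trim30a: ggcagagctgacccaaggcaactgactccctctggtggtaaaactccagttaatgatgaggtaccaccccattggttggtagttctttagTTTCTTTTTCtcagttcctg
Trim30d: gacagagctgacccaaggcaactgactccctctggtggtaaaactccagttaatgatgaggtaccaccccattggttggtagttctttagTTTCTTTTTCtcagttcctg

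The Trim30a and Trim30d stretches were identical at 109 of 110 bases. Those of Trim12a and Trim12c were 7 edits apart, counting substitutions, insertions and deletions. The match begins 36 bases before the RefSeq start of Trim30a, 41 before that of Trim30d and 29 before that of Trim12c, and at base 11 of the RefSeq transcript of Trim12a. In GENCODE, Trim12a begins at chr7:104315466, and by that start the match lies before the gene. Trim30a has a further start in RefSeq, whose window also holds a match. The 110 bases around that match, not shown above, were 12 edits from the Trim30d stretch.

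Matches to this motif on either strand were counted in windows from 250 bases before to 50 after each RefSeq start, a gene holding the motif if any of its windows did. Windows were present for 51 of the 66 rows. The motif was found for 5 of the 8 cluster rows and for 3 of 43 rows outside the cluster (6.98%), where 3.99% of 27025 genes held it. Outside the cluster these were Trim2, Trim21 and Trim26. A match describes the letters of the window and is no evidence that a factor binds there. The 30-base lines below show the remaining cluster row that held a match and both antiviral members outside the cluster, in which overlapping matches are capitalised as 1 run.
Trim34a: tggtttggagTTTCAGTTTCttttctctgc
Trim21: ctgagagGAAACTGAAAGTGAAAtttggac
Trim26: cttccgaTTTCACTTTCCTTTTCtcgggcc

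These lie at chr7:104244457-104244486 (plus strand) for Trim34a, chr7:102565447-102565476 (minus strand) for Trim21 and chr17:36836979-36837008 (plus strand) for Trim26. Of the rows with a match, Trim12a, Trim30d and Trim34a had intervals below 0 and Trim12c, Trim30a and Trim21 above 0. The intervals of Trim2 and Trim26 spanned 0. Trim34b, with 34 and 71 counts, had no match in its window, though its counts are not surely divided from those of Trim34a. The part of the motif in these values was not tested.

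Antiviral members outside the cluster were higher or near equal in the knockout library. Of the 5 measured, 3 had an interval above 0 and none below it, where 22.2% and 24.0% of all measured genes did. Trim21, a cytosolic receptor for antibody-coated virus, had 399 and 703 counts (log2 ratio 0.82, 0.65 to 1.01). Trim14, an adaptor of the MAVS pathway, had 549 and 904 (log2 ratio 0.73, 0.57 to 0.88). Trim21 was the only member outside the cluster whose interval lay wholly beyond 1.5-fold, as did those of 3 of the 43 measured members and 3.01% of all measured genes. Trim25, the ligase that activates the RNA sensor RIG-I, had 1903 and 2075 counts and a smaller log2 ratio of 0.13 (0.04 to 0.22). Trim26 and Trim56 had intervals spanning 0, at 2185 and 2282 counts and at 1094 and 1087. Trim38 had 5 and 3 counts. Trim14 overlaps Nans on the opposite strand, which had 947 and 931 counts, and 28.5% of Trim14 windows also lie in Nans transcripts.

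Interferon-inducible genes outside the family had a larger median log2 ratio than these members, whose median was 0.13. Of a list of 30, put together with earlier results of these libraries known, 28 had an interval above 0 and 15 lay beyond 2-fold higher, with a median log2 ratio of 1.18. Among all measured genes the shares were 22.2% above 0 and 0.610% beyond 2-fold higher. Iigp1, an immunity-related GTPase, had a log2 ratio of 3.05 (2.95 to 3.15), above that of every TRIM member. Summed macrophage markers stood at 391 CPM in WT and 490 CPM in H19KO, of which Lyz2 made up 141 and 205 CPM. Adgre1, which encodes F4/80, had 445 and 560 counts. Csf1r went the other way, with 1451 and 1223 counts (log2 ratio -0.24, -0.35 to -0.13). Lymphocyte markers were low in both, at 8.56 and 6.36 CPM summed, with none of the 6 at 0 in either library. The part of these cells in the TRIM values was not tested.

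The members that regulate chromatin were abundant and nearly level. Trim28, also called KAP1, the cofactor through which KRAB zinc finger proteins silence retroelements, had 6933 and 5780 counts (log2 ratio -0.25, -0.31 to -0.20). Trim24, a nuclear receptor coregulator, had 2157 and 1964 (-0.13, -0.22 to -0.04). Trim33, which acts on SMAD signalling, had 3581 and 3748 (0.07, 0.01 to 0.14), and this interval spanned 0 under median-of-ratios scaling. Trim66 had 18 and 20 counts. Among all measured genes 24.0% had an interval below 0, 22.2% had one above it and 0.998% lay beyond 2-fold. Of 10 genes that work with Trim28 in silencing, 6 had an interval below 0, 1 above it and none lay beyond 2-fold, with a median of -0.07. The histone methyltransferase gene Setdb1 was among them at 2786 and 2619 counts (-0.08, -0.16 to -0.00).

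Members with NHL repeats, several of which act in neurons, had log2 ratios near 0 apart from Trim71. Trim2 had 1917 counts in each library and Trim32 863 and 837, with intervals spanning 0. Trim3, which lies 1.10 Mb beyond the cluster, had 741 and 650 (-0.18, -0.34 to -0.03). Trim71, also called LIN41, a let-7 target that keeps stem cells undifferentiated, had 47 and 22 counts. Its log2 ratio was -1.07 (-1.89 to -0.33), so the point value but not the interval lay beyond 2-fold, and the low counts leave it wide.

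Among the members with a COS box, which binds microtubules, Trim9, a ligase of neurons, had 450 and 354 counts (-0.34, -0.54 to -0.13). Trim36 had 30 and 54 counts (0.85, 0.19 to 1.55) and Trim46, which bundles axonal microtubules, 42 and 49 with an interval spanning 0. The muscle members were close to absent: Trim63 had 6 and 8 counts, Trim54 and Trim55 each 0 and 1, and the membrane repair gene Trim72 had 11 and 7. The 5 striated muscle markers were scarce too, at 2.02 and 2.68 CPM summed. Myh7 had 24 and 33 counts, Acta1 10 and 5, Tnnt3 6 and 18, Ckm 7 and 6, and Myh4 0 in both.

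The members anchored to membranes or organelles differed little. Trim23, which carries a GTPase domain, had 607 and 711 counts (0.24, 0.08 to 0.40). Trim13, held in the endoplasmic reticulum, had 487 and 488, the peroxisomal ligase Trim37 2041 and 1956, and Trim59 323 and 327, and all these intervals spanned 0.

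None of the 17 other measured members had an interval above 0, where 22.2% of all measured genes did. An interval below 0 was found for 6 of the 17, beside 24.0% of all measured genes, and 11 of the 17 spanned 0. The 17 had a median log2 ratio of -0.09. The lowest were Trim62 with 504 and 324 counts (-0.63, -0.84 to -0.43), Trim16, which takes part in the clearance of damaged lysosomes, with 257 and 175 (-0.55, -0.83 to -0.26), and Trim8, a regulator of cytokine signalling, with 3103 and 2117 (-0.54, -0.62 to -0.46). Trim47 had 353 and 271 counts (-0.37), Trim11 599 and 513 (-0.22) and Trim35 4567 and 4270 (-0.09). The remaining 11 lay between log2 ratios of -0.21 for Trim45 and 0.13 for Trim61. Trim60, Trim61 and Trim75 lie side by side on chromosome 8 and had 269 and 252, 327 and 355, and 246 and 257 counts. Trim60 overlaps Trim61, and Trim47 overlaps Trim65, on the same strand.

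**Figure D3:**
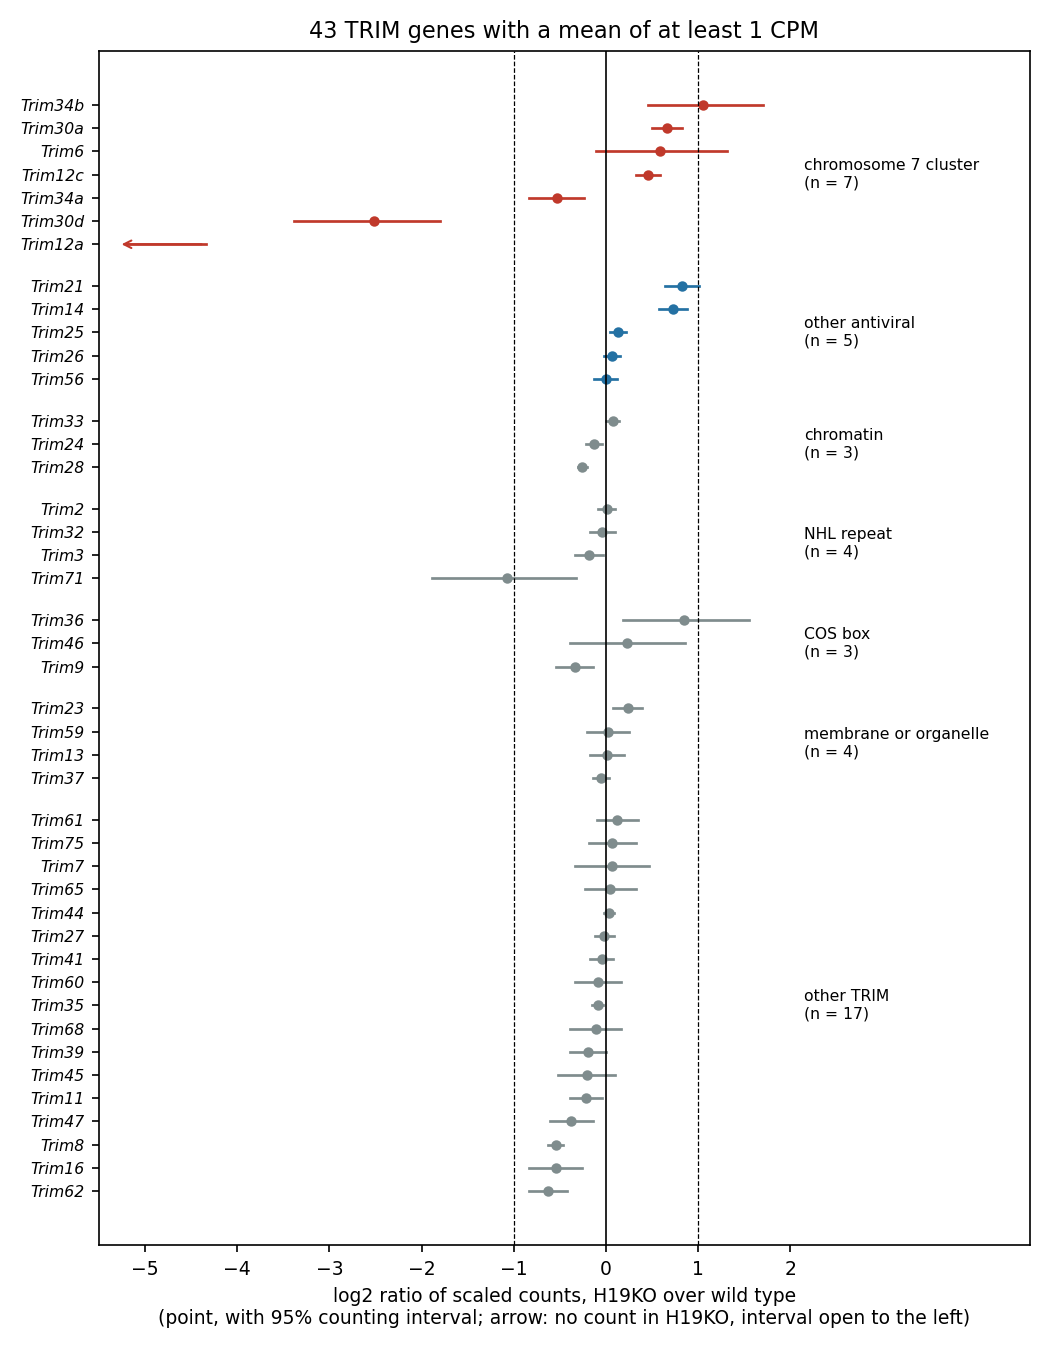
Log2 ratio of H19KO over wild type (x axis) for the 43 measured TRIM genes, grouped by role, as points with 95% counting intervals; dashed lines mark 2-fold and the arrow marks Trim12a, whose interval is open to the left because it had 0 counts in the H19KO library. The cluster on chromosome 7 spreads to both sides of 0, Trim21 and Trim14 stand above 0, and no interval of the last group lies wholly above 0.

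Of the 66 rows, 23 were under the minimum, with counts from 0 to 20. Of these, 19 had at most 10 counts in both libraries. They include the embryonic genes Trim43a, Trim43b and Trim43c, with at most 2 counts each. The other 4 of the 23 were Trim50 with 19 and 17 counts, Trim66, Trim72 and Trim80, with 8 and 19.

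Levels were compared between genes as CPM per kilobase of merged exons. Trim28 was highest in both libraries at 71.7 and 60.1 CPM per kb, followed by Trim44, a member that lacks the RING finger, at 49.8 and 51.0 and Trim35 at 42.5 and 40.0. The measured family had a median of 4.62 CPM per kb in the wild type and all measured genes 6.71. Trim12c was the highest of the cluster at 10.04 and 13.8 CPM per kb, rank 14 of the 43 in WT and rank 8 in H19KO. Trim30a stood at 5.43 and 8.59 CPM per kb. In the wild type Trim30d stood at 1.14 and Trim12a at 0.573 CPM per kb, below Trim30a and Trim12c, whereas Trim34a, also lower in the knockout library, was above Trim34b at 3.88 against 0.790 CPM per kb.

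Few genes beside the cluster could be measured. Of 102 rows within 1 Mb that are not in it, 1 was measured, Fam160a2, with 879 and 758 counts (-0.21, -0.35 to -0.06). The pseudogene row Trim30e-ps1, just beyond Trim30d, had 2 and 0 counts. Within 5 Mb there were 77 measured genes outside the cluster, of which 2 (2.60%) lay beyond 2-fold, both higher. These were Il18bp, which encodes a soluble inhibitor of interleukin-18, with 106 and 301 counts, and Gm4759 with 75 and 234, both named after their values were seen. On chromosome 7 as a whole 1.39% of 1009 measured genes lay beyond 2-fold, 9 higher and 5 lower. H19 lies 38.1 Mb beyond the cluster, and of the 301 measured genes between them 4 (1.33%) were beyond 2-fold higher and none lower. Among all measured genes 0.998% lay beyond 2-fold, 0.610% higher and 0.388% lower. The TRIM genes of chromosome 7 outside the cluster were Trim21, Trim28, Trim3 and Trim68, given above except for Trim68 with 225 and 207 counts, and the unmeasured Trim66 and Trim72.

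**Figure D4:**
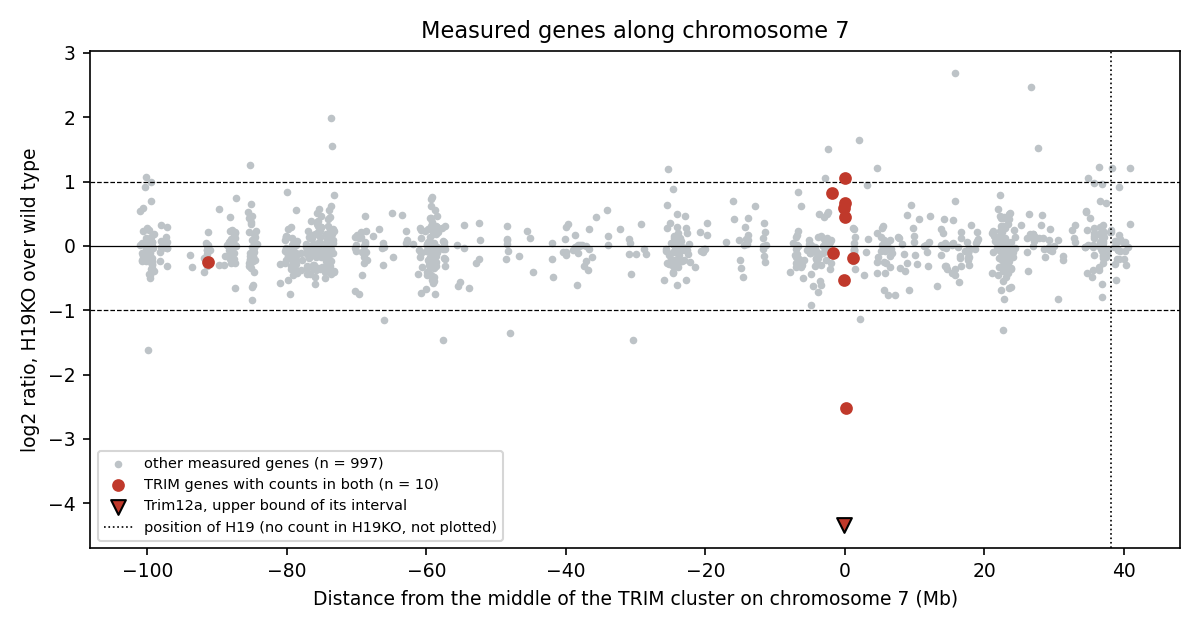
Log2 ratio of H19KO over wild type (y axis) for measured genes along chromosome 7 by distance from the middle of the TRIM cluster in Mb (x axis), 1 point per gene; the triangle is the upper bound for Trim12a, the dotted line is H19 and dashed lines mark 2-fold. Trim30d lies at -2.51 and the triangle at -4.34, and H19 with 0 counts in H19KO is marked by position only. Between the cluster and H19, 4 of 301 measured genes have a whole interval beyond 2-fold, all higher (1.33%, beside 0.998% of all measured genes).

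Apart from the interferon-inducible genes given above, none of the partner genes listed lay beyond 2-fold. Several that take part in interferon responses had intervals above 0. Of 18 genes that sense nucleic acid or relay the signal, 7 had an interval above 0, 3 below it and none lay beyond 2-fold, with a median of -0.03. Among all measured genes 22.2% had an interval above 0, 24.0% had one below it and 0.998% lay beyond 2-fold. Tab2, a target of Trim30a, had 5052 and 5365 counts (0.09, 0.04 to 0.15), and Rela, a subunit of NF-κB, had 2780 and 2367 (-0.22, -0.30 to -0.14). Ddx58, which encodes RIG-I, had 2131 and 2612 counts (0.30, 0.22 to 0.38). The farthest from 0 in this list were the kinase gene Ikbke with 162 and 268 counts (0.73, 0.45 to 1.02) and the RNA sensor gene Ifih1 with 1034 and 1674 (0.70, 0.59 to 0.82). Of 14 genes for ubiquitin conjugation and its readout, 10 had an interval spanning 0, 3 had one above it and 1 below it. Among all measured genes 46.2% had an interval wholly above or below 0. Ube2l6, the conjugating enzyme for ISG15, was the farthest from 0 with 694 and 1349 counts (0.97, 0.83 to 1.10). Ube2d3, the most abundant enzyme of the list, had 13465 and 14680 counts (0.13, 0.10 to 0.17). Of the TRIM genes filed under other symbols, Pml had 1286 and 1338 counts, Mid1 482 and 492 and Mid2 1276 and 1146.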

How the data were processed

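Total RNA from mouse ovary was depleted of ribosomal RNA and made into stranded, paired-end libraries, per the labels' protocols. The deposited values are whole-number counts per gene symbol. The submitters' processing notes name STAR 2.5.0a, Cufflinks 2.2.1, DESeq2 1.0.0 and mm10, without roles. How reads were counted, on which annotation and with what strand setting is not stated there or in the labels. Rounding after scaling by the authors is possible: median-of-ratios scaling gave both libraries the same size.

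Libraries were scaled by TMM on the whole table (edgeR 4.0.16). Intervals are exact conditional binomial (Clopper-Pearson) at 95%, and a count of 0 was taken to allow 3. No interval or floor covers more than counting error. Coordinates and exon lengths came from GENCODE M21. Scripts were tested on simulated data. Family members, gene lists and settings were chosen with earlier results of these data known. Any TRIM row could be named. Outside the family the rule took H19, up to 4 most abundant and up to 4 beyond 2-fold per list, and neighbours beyond 2-fold within 1 Mb. A few other genes are named as markers or after their values were seen. Protein identity was not computed. Other settings were other scalings, CPM minimums, fold limits and added counts, summed copies and a wider cluster. Python 3.11.15, scipy 1.17.1 and DESeq2 1.42.0 were also used.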

Additional observations from a re-analysis of the deposited data

How the results depend on the processing

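The count of TRIM members beyond 2-fold was 2 under total count and median-of-ratios scaling and with no low count filter. It was 0 with a minimum of 5 CPM, which leaves Trim12a and Trim30d out, 1 with a 4-fold limit, 3 with a 1.5-fold limit and 4 by the point ratio, which adds Trim34b and Trim71. The median of the cluster was -0.11 over all 11 measured TRIM rows of chromosome 7. It was 0.39 with near-identical copies summed. Of 17 medians under alternatives, 16 moved by less than the median half-width of their members' intervals. For the cluster this half-width, taken without the open interval of Trim12a, was 0.46, as wide as the cluster median of 0.46. The tally therefore says little about the cluster. The medians of the whole family (0.0095) and of the members outside the cluster (0.0078) turned above 0 with no low count filter. The bound for Trim12a was 25.3-fold with total counts and 25.7-fold with median-of-ratios scaling. Of 129 single-gene values, 128 stayed inside the gene's own interval, and no member was gained or lost beyond 2-fold by its whole interval under the other scalings. With 5 added to each count the point values of Trim34b (0.97) and Trim71 (-0.94) came within 2-fold. The value outside its interval was that of Trim12a with 5 added (-4.03), a value set by the added count. No paired analysis was possible because there was only 1 library on each side, and so no replicate to leave out. Depth limits members near 1 CPM, such as Trim6 and Trim36.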
